A study of Drosophila melanogaster with 6 samples.

Results

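The genes described here make, sense and recycle histamine, the transmitter of fly photoreceptors, or make the beta-alanine used in that recycling. They are Hdc, ort, HisCl1, e, t, b, CarT and BalaT, 8 of the 17753 genes in the deposited table, chosen by symbol. BalaT was matched through its synonym in the RefSeq gene table (annotated as Balat), and the other 7 by their symbol. RNA was measured by sequencing after removal of ribosomal RNA in whole heads of adult Drosophila melanogaster, 50 heads per library, from flies 2 to 7 days after eclosion kept at 25 °C and 70% humidity. The control group was the wBerlin stock (3 libraries) and the other group a Kdm3 knockout, Kdm3 KO (3 libraries), both described as biological replicates. Kdm3 encodes a JmjC-domain histone demethylase. The sources used here do not give how the knockout was made, whether it was placed in the wBerlin background, or the sex of the flies, so other genetic differences between the stocks cannot be told apart from the loss of Kdm3. Where 3 values of a genotype are listed below, they stand in the order of replicates 1, 2 and 3.

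Photoreceptors make histamine from histidine with histidine decarboxylase, the product of Hdc, and release it onto lamina neurons, where it opens histamine-gated chloride channels. Glia take up the released histamine and join it to beta-alanine with Ebony, the product of e, which gives the inactive conjugate carcinine. Carcinine returns to the photoreceptor through the transporter CarT, and Tan, the product of t, splits it again into histamine and beta-alanine. Beta-alanine is made from aspartate by the decarboxylase Black, the product of b, and is carried by the transporter BalaT. Ebony, Tan and Black also act in the tanning and colouring of the cuticle, where the conjugate is made with dopamine.

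Total counts per library were 19850981 to 28237382, and 3 counts, the most that a count of 0 allows, correspond to 0.106 to 0.151 CPM, the unit of counts scaled to the size of the library. This limit covers counting error only. The targeted gene Kdm3 measured 32.5, 30.1 and 28.7 CPM for wBerlin against 3.86, 0.642 and 0.710 CPM for Kdm3 KO, so every knockout library lay far below every control. Its log2 fold change, Kdm3 KO over wBerlin as throughout, was −4.09 (SE 0.49, edgeR adjusted p = 0.00344). Markers of photoreceptors, neurons and glia were present in every library, apart from the glial gene Gat, on chromosome 4, which is at 0 in all of them. The 14 photoreceptor markers summed to 37264 to 51860 CPM in wBerlin and 33452 to 44555 CPM in Kdm3 KO, and 1 of them, the rhodopsin gene Rh5, was called lower. Outside the visual system, the marker sums of fat body and gut did not overlap between the groups, and those of muscle and antenna did. The muscle markers summed to 16351 to 32287 CPM in wBerlin and 12958 to 20460 CPM in Kdm3 KO, the fat body markers to 9095 to 14942 and 19589 to 25369 CPM, and the antennal markers to 348 to 828 and 248 to 348 CPM. Of the 9 antennal markers 6 were called lower. Their sums overlapped, with Kdm3 KO replicate 3 at 348.2 CPM just above wBerlin replicate 1 at 347.7 CPM. The gut markers summed to 30.9 to 34.2 CPM in wBerlin and 57.9 to 145 CPM in Kdm3 KO, and 3 of the 6 tested were called higher. Kdm3 KO replicate 2 stood apart from the other 5 libraries on the first principal component, which held 44.1% of the variance. In whole heads, fewer cells of a type and less RNA per cell cannot be told apart.

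Of the 8 genes 7 were well measured. Levels per length, as CPM per kb of exon averaged over the 6 libraries, were highest for the carcinine hydrolase gene t at 208, above 96.6% of the 14069 genes tested. Ebony (e) followed at 82.8 and black (b) at 45.5 CPM per kb. The carcinine transporter CarT was at 27.8 and the histidine decarboxylase gene Hdc at 22.0 CPM per kb. The receptor genes were lowest, HisCl1 at 13.0 and ort at 7.27 CPM per kb, against a median of 7.05 CPM per kb over all genes tested. The ranges of neighbouring genes in this order did not overlap over the 6 libraries, but those of e and b nearly met, at 63.1 CPM per kb in the lowest library for e and 63.0 in the highest for b. The means lay closest for CarT, with a range of 25.1 to 31.0, and Hdc, with 17.4 to 24.7 CPM per kb. In these whole-head libraries the transcripts of the recycling genes t, e and CarT thus stood above that of Hdc, and those of both channels below it.

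**Figure D1:**
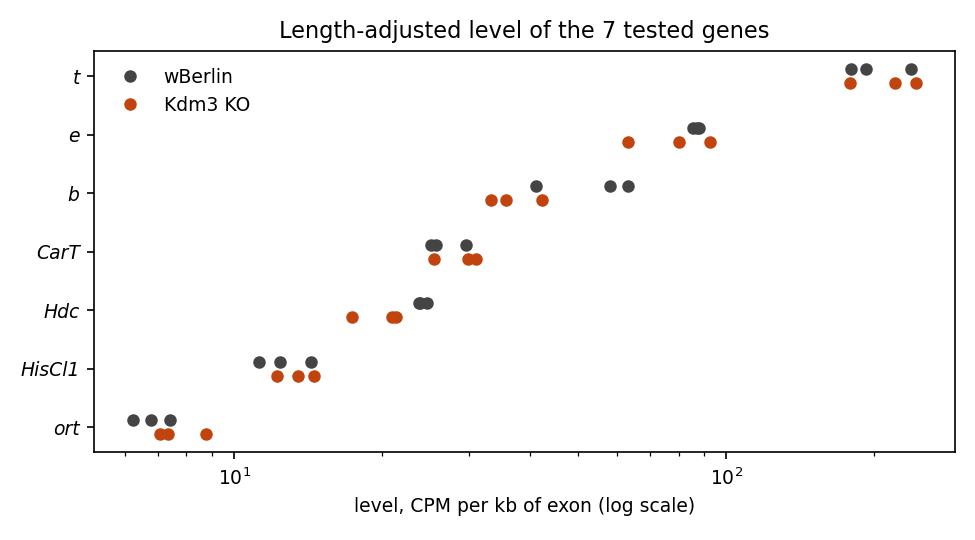
Level of each gene in CPM per kb of exon (log axis), with 1 point per library, wBerlin in grey and Kdm3 KO in orange. The genes are ordered from t at a mean of 208 to ort at 7.27 CPM per kb. The genotypes lie furthest apart for b, at means of 54.0 in wBerlin and 37.1 CPM per kb in Kdm3 KO.

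The eighth gene, BalaT, could not be assessed. Its count was 0 in 5 libraries and 1 in Kdm3 KO replicate 1. BalaT (FBgn0033778, arm 2R, 12872787 to 12875012, minus strand) has 1947 exon bases, of which 1918 also lie in the exon of asRNA:CR43469, an antisense RNA on the other strand, which was itself at 0.142 CPM in wBerlin and 0.268 CPM in Kdm3 KO on average. The same pattern held across the table. Of 93 protein-coding genes with at least 95% of their exon bases under exons of the opposite strand, 79 (84.9%) had at most 3 counts over all 6 libraries. Of the 11549 genes with under 5% of their bases so covered, 475 (4.11%) had so few. At an intermediate cover of 75 to 95% the share was 6.12% of 98 genes. The count of BalaT is therefore not read here as its expression, and whether reads under both genes were set aside during counting was not tested. Opposite-strand exons covered 165 of the 3826 exon bases of Hdc and 101 of the 1872 of HisCl1, and none of the other 5 genes.

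**Figure D2:**
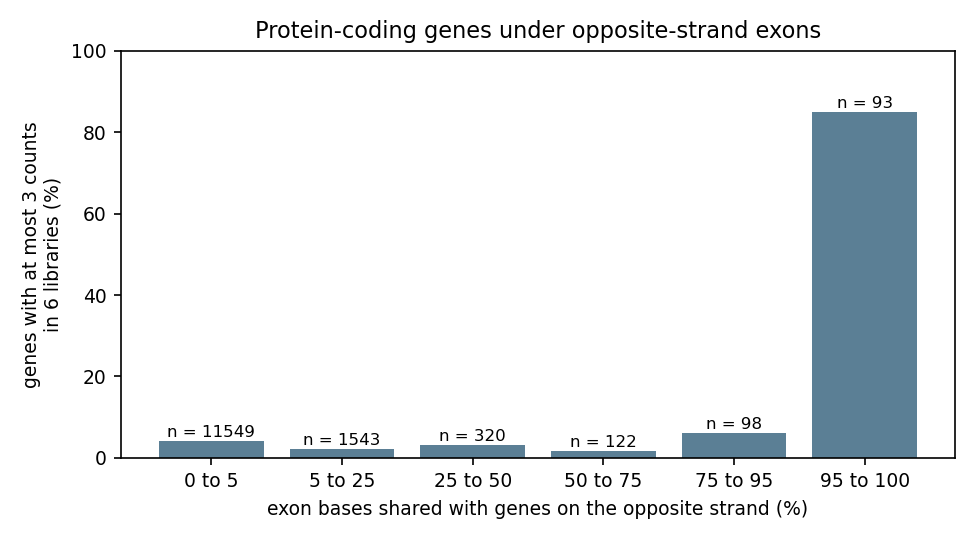
Share of protein-coding genes (y axis, %) with at most 3 counts in all 6 libraries, by the share of their exon bases covered by exons on the opposite strand (x axis, %), with the number of genes above each bar. The bar from 95 to 100%, where BalaT falls, stands at 84.9%, and the other bars are at or under 6.12%.

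The comparison of the genotypes asks whether loss of Kdm3 changes these transcripts in the head. None of the 7 tested genes was called at an adjusted p under 0.05, in either direction, by edgeR's quasi-likelihood test, where 2.15% of all genes tested were called higher and 0.917% lower (3.07% together). At an unadjusted p under 0.05 there were 2 lower genes, b and Hdc, and 0 higher, where 7.51% of all genes were lower and 7.14% higher (14.6% together). When wBerlin replicate 1 was dropped together with Kdm3 KO replicate 2, which leaves 4 libraries, the same 2 genes were lower at an unadjusted p under 0.05 and 3 were higher, HisCl1, t and CarT, where 11.8% of all genes were lower and 13.2% higher (24.9% together). The log2 fold changes of these 3 were then 0.25, 0.32 and 0.26 (edgeR adjusted p = 0.174, 0.0781 and 0.0846). The choice of libraries to drop was taken from earlier results of these data. For HisCl1, t and CarT, wBerlin replicate 1 was the highest control and Kdm3 KO replicate 2 the lowest knockout. Dropping both therefore moves these genes upward, and the counts from 4 libraries are no independent evidence of a change. Limma voom called 0 of the 7, where it called 2.77% of all genes, and DESeq2 called 1, b, where it called 6.51%. The log2 fold changes ran from −0.54 for b to 0.19 for ort, 3 below 0 and 4 above. Their median was 0.07 beside 0.04 over all genes tested, and their median size without the sign was 0.15 beside 0.17. All 7 of the 95% intervals lay between a 0.535-fold and a 1.37-fold level, so a change of 2-fold or more was outside each of them. Only Hdc had groups that did not overlap, lower in Kdm3 KO, where 9.33% of all genes tested had no overlap in that direction and 9.35% in the other (18.7% together).

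**Figure D3:**
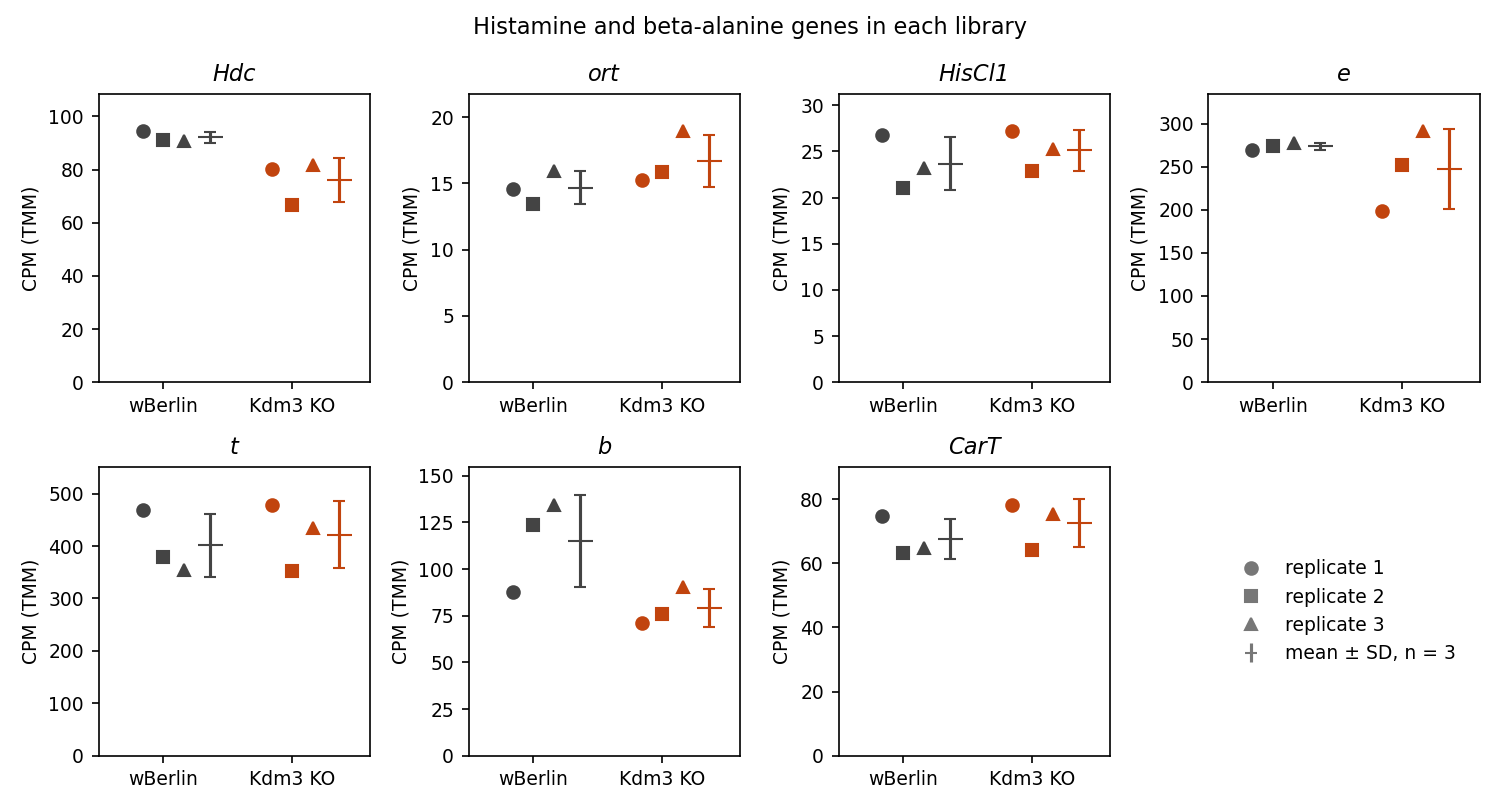
CPM of the 7 tested genes in each library, with a symbol for each replicate and the mean ± SD (n = 3) of each genotype beside it; all y axes start at 0. Only the Hdc groups do not overlap, and b shows wBerlin replicate 1 beside the Kdm3 KO libraries.

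Histamine synthesis was represented by Hdc (FBgn0005619, arm 2R, 10237988 to 10246077). The wBerlin libraries held 94.5, 91.1 and 90.8 CPM of Hdc and the Kdm3 KO libraries 80.1, 66.5 and 81.7 CPM. The wBerlin libraries were close together, each Kdm3 KO library lay below them, and Kdm3 KO replicate 2 was the lowest. The means were 92.1 ± 2.04 and 76.1 ± 8.31 CPM (SD, n = 3), a level 0.826-fold that of the control with a 95% interval from 0.707 to 0.965. The log2 fold change of −0.28 (SE 0.10) did not pass the edgeR test over all genes (adjusted p = 0.218). It passed with upper quartile scaling (adjusted p = 0.0274), total count scaling (0.0373) and a filter of 5 CPM (0.0223), where 1.51%, 1.19% and 3.19% of genes were called lower. The range over all 15 alternatives was 0.0223 to 0.359, and without Kdm3 KO replicate 2 the log2 fold change was −0.18 (adjusted p = 0.179).

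The receptor genes did not differ beyond the spread between libraries. The gene ort (FBgn0003011, arm 3R, 19659748 to 19663672) codes for the histamine-gated chloride channel of lamina neurons. Its level was 14.6, 13.5 and 16.0 CPM among controls and 15.3, 15.9 and 18.9 CPM among knockouts. The groups overlapped, and Kdm3 KO replicate 3 was the highest library. Its level was 1.14-fold that of the control, with a 95% interval from 0.942 to 1.37 (edgeR adjusted p = 0.571). The second channel gene, HisCl1 (FBgn0037950, arm 3R, 11787176 to 11789393), is known for its role in photoreceptors and lamina glia. The control values were 26.8, 21.1 and 23.2 CPM and the knockout values 27.2, 22.8 and 25.3 CPM. Each group had its highest value in replicate 1, and the groups overlapped. The fold was 1.06, with a 95% interval from 0.883 to 1.28 (edgeR adjusted p = 0.807), and its direction turned without wBerlin replicate 2 (log2 fold change −0.034). The 5 lamina neuron markers summed to 309.7 to 338 CPM in wBerlin and 277 to 319 CPM in Kdm3 KO, and 1 of them, pdm3, was called lower (log2 fold change −0.42, edgeR adjusted p = 0.0371). Their part in the level of ort was not tested. The receptor values rest on 346 to 427 reads per library for ort and 498 to 745 for HisCl1.

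The genes of the carcinine cycle were not called either, and their 95% intervals all included the control level. Ebony (e, FBgn0000527, arm 3R, 21229839 to 21237177), which makes carcinine in glia, had control levels of 269, 274 and 277 CPM. The knockout levels were 198, 252 and 291 CPM. The control libraries differed by a coefficient of variation of 1.46% and the Kdm3 KO libraries by 18.9%, with replicates 1 and 2 below and replicate 3 above all controls. The level of e was 0.904-fold that of the control (95% interval 0.732 to 1.12, edgeR adjusted p = 0.704), and without Kdm3 KO replicate 1 the log2 fold change was −0.0026.

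Tan (t, FBgn0086367, arm X, 9217655 to 9223257), which splits carcinine in photoreceptors, had control levels of 469, 379.7 and 354 CPM and knockout levels of 479, 352 and 435 CPM. The highest library of each group was replicate 1, and the groups overlapped. Its fold was 1.05 (95% interval 0.835 to 1.32, edgeR adjusted p = 0.879), and the direction turned without wBerlin replicate 2 or 3 or Kdm3 KO replicate 1. The carcinine transporter gene CarT (FBgn0032879, arm 2L, 20727151 to 20730282) had control levels of 74.6, 63.3 and 64.8 CPM and knockout levels of 78.3, 64.1 and 75.4 CPM, which overlapped. Its fold was 1.07 (95% interval 0.908 to 1.27, edgeR adjusted p = 0.742).

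The photoreceptor genes CarT and t and the channel gene HisCl1 followed nearly the same pattern over the libraries. After each gene's log2 CPM was centred on its own mean, HisCl1 and CarT differed by a root mean square of 0.044 over the 6 libraries, t and CarT by 0.076 and HisCl1 and t by 0.095. Those are the smallest differences among the 21 pairs of the 7 genes, and b and t had the largest, 0.47. The summed photoreceptor markers came to 51860, 40092 and 37264 CPM for controls and 44555, 33452 and 40863 CPM for knockouts. They were thus highest in wBerlin replicate 1 and lowest in Kdm3 KO replicate 2. The 3 genes were each highest in Kdm3 KO replicate 1. HisCl1 and CarT were lowest in wBerlin replicate 2, and t in Kdm3 KO replicate 2. The summed glia markers came to 3659, 3445 and 3320 CPM for controls and 4206, 3412 and 4069 CPM for knockouts. This glia sum, too, was highest in Kdm3 KO replicate 1. The part of the photoreceptor or glial share in the pattern of these 3 genes was not tested.

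**Figure D4:**
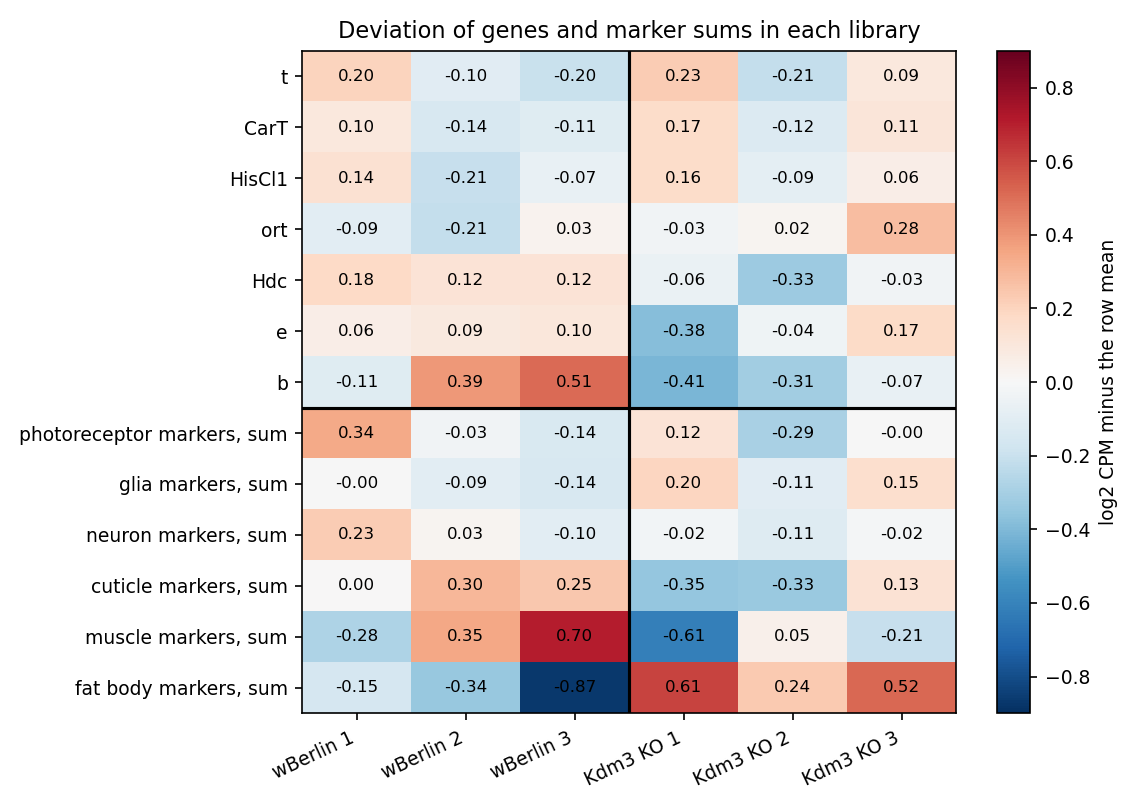
Deviation of log2 CPM from the row mean in each library (blue lower, red higher) for the 7 tested genes above the line and for summed marker lists below it. The rows of t, CarT and HisCl1 have the same sign as one another in every library. The row of b is high in wBerlin replicates 2 and 3 (0.39 and 0.51). The muscle sum (0.35 and 0.70) and the cuticle sum (0.30 and 0.25) are also high there. In Kdm3 KO replicate 2, b is at −0.31, cuticle at −0.33 and muscle at 0.045. In Kdm3 KO replicate 3, b is at −0.07, cuticle at 0.13 and muscle at −0.21.

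Black (b, FBgn0000153, arm 2L, 13821248 to 13823979), which makes beta-alanine from aspartate, differed most between the groups. The wBerlin libraries held 87.5, 124 and 135 CPM of b and the Kdm3 KO libraries 71.0, 76.1 and 90.3 CPM. The wBerlin replicates 2 and 3 lay above all other libraries, while wBerlin replicate 1 lay below Kdm3 KO replicate 3. The means were 115.3 ± 24.7 and 79.1 ± 9.97 CPM (SD, n = 3), a level 0.686-fold that of the control with a 95% interval from 0.535 to 0.881. The log2 fold change of −0.54 (SE 0.16) did not pass the edgeR test (adjusted p = 0.123). DESeq2 called it (adjusted p = 0.0125), as did edgeR without wBerlin replicate 1 (log2 fold change −0.76, adjusted p = 0.00650) and without wBerlin replicate 1 and Kdm3 KO replicate 2 together (−0.68, adjusted p = 0.0269). In these 3 settings 2.86%, 3.24% and 3.39% of genes were called lower, and the adjusted p over all 15 alternatives ranged from 0.00650 to 0.333. The joint removal of 2 libraries was a choice taken from earlier results of these data, and wBerlin replicate 1 was the lowest control for b.

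The genes with the pattern most like that of b over the 6 libraries were zormin, exp and Mf. Their centred log2 CPM differed from that of b by a root mean square of 0.039, 0.042 and 0.051, where the median over 14068 genes was 0.40. Zormin and Mf code for proteins of the muscle sarcomere, and no role of exp is given here. The gene exp had control levels of 64.7, 91.4 and 99.6 CPM and knockout levels of 55.0, 56.7 and 63.2 CPM. Mf had control levels of 1521, 1969 and 2206 CPM and knockout levels of 1181, 1220.0 and 1407 CPM. It, too, was highest in wBerlin replicates 2 and 3. The 8 summed muscle markers came to 16351, 25281 and 32287 CPM for controls and 12958, 20460 and 17187 CPM for knockouts, and 1 of them, Act87E, was called lower. The 7 summed cuticle markers came to 1892, 2329.8 and 2242 CPM for controls and 1486, 1504 and 2070.0 CPM for knockouts, and 0 of them were called. The part of muscle or cuticle in the level of b was not tested.

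Ratios of 2 genes within a library do not depend on the scaling of libraries. Of 11 ratios computed, none could pass a threshold of 0.05, since the exact two-sided permutation test over 3 against 3 libraries cannot go below 0.1. The count ratio of Hdc to ort was 6.46, 6.76 and 5.68 among controls and 5.25, 4.19 and 4.31 among knockouts. The groups did not overlap, and the difference of the mean log2 ratios, Kdm3 KO minus wBerlin, was −0.46 (exact permutation p = 0.1, adjusted over the 11 ratios 0.275). Against ninaE, which codes for the main rhodopsin, the ratios of HisCl1, t and CarT were higher in every Kdm3 KO library than in every wBerlin library. Their log2 differences were 0.39, 0.37 and 0.41 (each exact permutation p = 0.1, adjusted 0.275). The difference of ort to ninaE was larger, 0.49, but its groups overlapped (exact permutation p = 0.2, adjusted 0.367). Those of e and b, 0.14 and −0.22, also had groups that overlapped. All these ratios share ninaE, so they are not separate observations. The share of all genes that separate in this way against ninaE is not given here. The level of ninaE itself was 16384, 11860 and 10753 CPM among controls and 12014, 8648 and 10706 CPM among knockouts (log2 fold change −0.31, edgeR adjusted p = 0.564). Against ninaE, Hdc had a log2 difference of 0.022 (exact permutation p = 0.9). The ratio of CarT to BalaT was not computed, since BalaT was at 0 in 5 libraries.

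Other genes of the pathway were read in 4 lists taken from textbook roles. None of their tested genes was called by edgeR or by limma voom, which called 3.07% and 2.77% of all genes tested. DESeq2 called 3, lovit, su(r) and Ddc, where it called 6.51% of all genes. At an unadjusted p under 0.05, also given for each list below, 7.14% of all genes were higher and 7.51% lower. In the transporter list 0 of 4 tested genes were called (1 lower at an unadjusted p under 0.05), with a median log2 fold change of −0.10 beside 0.04 over all genes tested. Gat, on chromosome 4, was not analysed here, since the 301 listed genes that lie on none of the 5 large arms are at 0 in every library. The gene lovit codes for the transporter that loads histamine into photoreceptor vesicles. Its level was 185, 151 and 159 CPM among controls and 133, 108 and 123 CPM among knockouts. Every Kdm3 KO library lay below every control, and Kdm3 KO replicate 2 was again the lowest. The log2 fold change was −0.45 (SE 0.11, edgeR adjusted p = 0.0763), and it passed in 6 of 15 alternatives, with DESeq2 at the smallest adjusted p (0.00422). Vmat, the vesicular monoamine transporter gene, had a log2 fold change of −0.15 (edgeR adjusted p = 0.603).

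In the list of beta-alanine supply and use 0 of 7 genes were called, with 3 higher and 0 lower at an unadjusted p under 0.05 and a median log2 fold change of 0.20. The gene su(r) codes for dihydropyrimidine dehydrogenase, which starts the breakdown of uracil to beta-alanine. Its level was 111, 109 and 79.3 CPM among controls and 178, 131 and 193 CPM among knockouts. All Kdm3 KO libraries lay above all controls, with a fold of 1.67 (95% interval 1.28 to 2.18, edgeR adjusted p = 0.0517). It was called higher in 8 of 15 alternatives, with adjusted p from 0.000265 (DESeq2) to 0.139 over all of them. The later enzymes of the same route, CRMP and pyd3, were at 1.04-fold and 1.02-fold of the control (95% intervals 0.866 to 1.24 and 0.865 to 1.21). The 8 fat body markers, of which Yp3 and Pepck2 were called higher and apolpp, on chromosome 4, is at 0, summed to 14942, 13108 and 9095 CPM for controls and 25369, 19589 and 23783 CPM for knockouts. Their part in the level of su(r) was not tested. CG5618, the other gene of this list with the smallest p, had a fold of 1.29 (edgeR adjusted p = 0.199).

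The list of catecholamine and cuticle tanning genes has 10 symbols, of which speck and Dat were not analysed here. Of the other 8, all tested, 0 were called, with 1 higher and 1 lower at an unadjusted p under 0.05 and a median log2 fold change of −0.022. Dopa decarboxylase, Ddc, which makes the dopamine that Ebony also uses, had control levels of 249.8, 229.9 and 244 CPM. The knockout levels were 192, 158 and 187 CPM, each below every control. Its log2 fold change was −0.43 (SE 0.10, edgeR adjusted p = 0.0643), and it passed with DESeq2 (adjusted p = 0.00109) and in 9 further alternatives of 15. The gene yellow-f was at 6.54 ± 0.984 and 8.74 ± 0.805 CPM (SD, n = 3, edgeR adjusted p = 0.207). In the list of gap junction and glial genes 0 of 7 were called and 0 passed at an unadjusted p under 0.05, with a median of 0.07. The glial glutamate transporter gene Eaat1 had a log2 fold change of 0.19 and the innexin gene shakB one of −0.17 (edgeR adjusted p = 0.548 and 0.545).

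**Figure D5:**
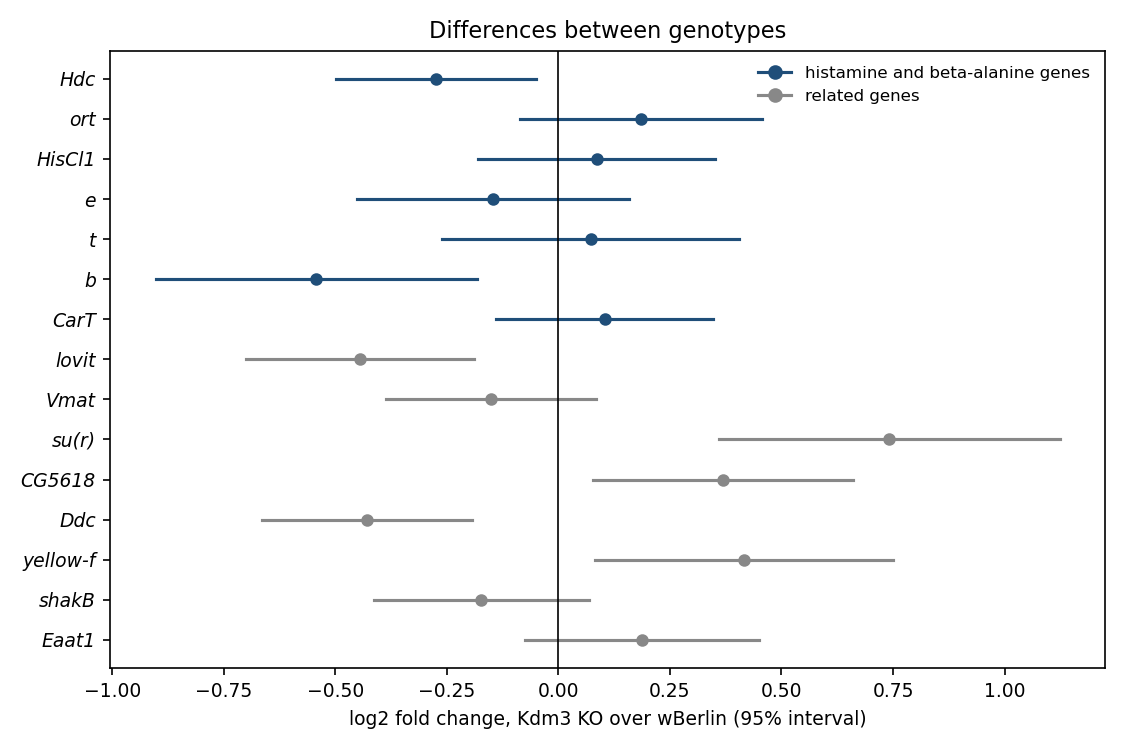
Log2 fold change of Kdm3 KO over wBerlin (x axis) with its 95% interval for the 7 tested genes (blue) and for the related genes named from the 4 lists (grey). The intervals of b and Hdc lie below 0 and those of the other 5 blue genes cross 0; among the grey genes su(r) is highest at 0.74 and lovit lowest at −0.45.

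HisCl1, ort and e share arm 3R with Kdm3 (9516007 to 9520938). HisCl1 lies 2.27 Mb from Kdm3, ort 10.1 Mb and e 11.7 Mb. Whether sequence linked to the knockout allele differs at these genes was not tested. The members' nearest and overlapping genes numbered 20 in the table, of which 18 were tested. Of these, 0 were called by edgeR, DESeq2 or limma voom, where 3.07%, 6.51% and 2.77% of all genes were called. At an unadjusted p under 0.05 there was 1, PolG1, where 14.6% of all genes tested passed. The span of PolG1 begins 1 base beyond the end of b on the opposite strand. Its log2 fold change was −0.28 (edgeR adjusted p = 0.268). Sos, on the other side of b, was at 88.5 and 89.0 CPM on average in the controls and knockouts.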

How the data were processed

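The deposited values are raw counts, one per gene and library, as the authors made them. Per the submitters' processing notes, the tools were STAR, SAMtools, HTSeq and DESeq2 and the build was BDGP6; versions, settings, annotation and use of strand are not given there. Of 17753 gene IDs, 17626 matched a symbol and position in the Ensembl annotation BDGP6.54, of the same assembly family, which gave coordinates and exon lengths. No library copied another of its group (chi-square 15.4 to 60.2 per degree of freedom). Total counts were 19850981 to 28237382.

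edgeR 4.0.16 in R 4.3.3 (TMM, filterByExpr, glmQLFit, glmQLFTest) was fitted to all 6 libraries with genotype as its term and two-sided tests. P-values were adjusted over 14069 genes by the Benjamini-Hochberg method, and values under 0.05 were called. CPM values are scaled by TMM. The SE is the log2 fold change over the square root of F, and the 95% interval uses the t quantile at the test's degrees of freedom; it is approximate and not adjusted for the number of genes. Alternatives were other scalings and filters, DESeq2 1.42.0, limma 3.58.1 (voom), a replicate block and libraries left out. The code was tested on simulated data. Genes named by rule were the 8 genes, Kdm3, their neighbours, up to 4 called genes per list (or the 2 of smallest p) and the 3 genes most like the member of smallest p. Rh5, pdm3, ninaE, Act87E, Yp3, Pepck2, CRMP and pyd3 were named after their values were seen. Members and lists were chosen with earlier results of these data known. The p-values measure only the spread between these samples, since no source says how replicates were raised.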

Additional observations from a re-analysis of the deposited data

How the results depend on the processing

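Counts of called genes depended on the setting, while the direction of Hdc, ort, e, b and CarT was the same in all 15 alternatives. The number of the 7 genes called lower was 0 in the main fit and 1 (Hdc) with total count scaling, the filter of 5 CPM or upper quartile scaling. It was 1 (b) with DESeq2 and with 4 libraries, where wBerlin replicate 1 and Kdm3 KO replicate 2 were both dropped, a choice taken from earlier results of these data; it was 0 to 1 with 1 library left out, and no alternative called a gene higher. Over all genes 303 were higher and 129 lower in the main fit. DESeq2 gave 514 and 402, the filter of 5 CPM 473 and 274, and the 4 libraries 606 and 476; upper quartile scaling gave 212 lower and no filter on low counts 266 lower. With 1 library left out the numbers were 181 to 574 higher and 62 to 467 lower. In the 4 lists 0 genes were called in the main fit, 2 with RLE scaling or with no filter on low counts, 3 with DESeq2, the filter of 5 CPM, total count scaling or upper quartile scaling, 4 in the 4 libraries, and 0 to 3 with 1 library left out. The cause of these differences was not tested.

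With 1 library left out, the log2 fold change of HisCl1 was −0.034 to 0.16 and that of t −0.056 to 0.19, so both changed sign. The log2 differences of ratios that changed sign were −0.0012 to 0.21 for ort to HisCl1, −0.38 to 0.012 for e to t, −0.14 to 0.14 for Hdc to ninaE, −0.051 to 0.40 for e to ninaE and −0.59 to 0.025 for b to ninaE. Without wBerlin replicate 1 these were −0.0012 for ort to HisCl1, −0.14 for Hdc to ninaE and −0.051 for e to ninaE; without Kdm3 KO replicate 2 they were −0.015 for Hdc and −0.014 for e to ninaE. Kdm3 stayed called in all 15 alternatives (−5.47 to −3.65).

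The replicate numbers were not shown to pair libraries: deviations from the group means of libraries with the same number correlated at 0.34, 0.25 and −0.050 across genes, and wBerlin replicate 3 and Kdm3 KO replicate 3 did not correlate best with each other. With the replicate block, 1 of the 7 genes was called lower (b, adjusted p = 0.0193), 3 genes of the lists were called, and 362 genes in all were lower. The 95% intervals of ort, HisCl1, e, t and CarT include equal levels, so at 3 libraries per group these data do not settle whether the genes differ by amounts within them.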
